A study of Mus musculus with 6 samples.

Results

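The genes described here are 49 components of the WNT pathway, chosen by name from 35275 genes in a mouse ovarian cancer expression table: 10 ligands, 2 genes needed for ligand secretion, 13 receptors, 2 R-spondin receptors, 8 cytoplasmic signalling genes, 4 transcription factors and 10 inhibitors. All 49 were found in the table, and 33 passed the filter on low values, a mean of at least 0.5 FPKM over the libraries. FPKM, fragments scaled by gene model length and library size, is a level per length, so levels of different genes can be set side by side. The cells were ID8-KMF, a line derived from mouse ID8 ovarian cancer cells (strain C57Bl6/J) by passage in the animal. All 6 libraries were of Rgnef-/- cells, which lack Rgnef (Arhgef28), a guanine nucleotide exchange factor. A lentivirus had given GFP-tagged Rgnef back to the cells of 3 libraries, called GFP-Rgnef below, and the other 3, without it, are called knockout. Both were grown subconfluent on dishes with Matrigel, and the question is how RNA levels depend on Rgnef. Virus, tag and Rgnef came together and cannot be told apart, and whether each kind of cell was 1 clone, or each library a separate culture, was not given in the sources used here. P-values below therefore reflect how much these libraries varied, and that variation may be technical.

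WNT proteins are secreted, lipid-modified ligands. In the canonical branch a ligand bound to a Frizzled receptor and to LRP5 or LRP6 stops the complex of Axin, APC and GSK3 from marking beta-catenin for destruction, and beta-catenin then works with TCF and LEF factors at target genes. In other branches ligands such as WNT5A and WNT11 act through Frizzled, ROR or RYK receptors on cell polarity and movement, and in the ovary and its mesothelial covering WNT4 in particular is known for a role in development.

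The Rgnef label held in all libraries, with Arhgef28 at 50.02 to 57.2 FPKM with GFP-Rgnef and 0.110 to 0.134 FPKM in knockout. Depth was 15898965 to 17977069 reads per library. The cells had RNA of mesothelial and ovarian surface genes: Krt19, Wt1, Msln and Upk3b had FPKM values of 42.6 or more in every library, although Krt7, Lrrn4 and Pax8 of the same list stayed below 0.5 on average. The summed level of that list, 12 genes in the table, was 1842 to 2680 FPKM with GFP-Rgnef and 1745 to 2731 in knockout, with Krt19 as the largest part. Within the list Krt18 fell (-0.51, limma adjusted p = 0.00625) and Bnc1 rose (0.64, limma adjusted p = 0.00499), while Upk3b had a knockout mean 2.72 times that with GFP-Rgnef without a call (limma adjusted p = 0.0878). Immune markers summed to 2.24 to 3.89 FPKM over all libraries, mostly Cd68, with Adgre1 and Cd3e at 0. The endothelial list summed to 85.9 to 145.8 FPKM, of which Tek made up nearly all while Kdr was at 0 throughout. The fibroblast and stroma list of 7 genes summed to 49.97 to 71.2 FPKM with GFP-Rgnef and 40.01 to 44.4 in knockout, mostly Dcn, which fell (limma adjusted p = 0.0426). Other genes of that list had higher knockout means without a call: Col1a1 had 0.989 to 3.02 FPKM with GFP-Rgnef and 3.61 to 8.92 in knockout, Pdgfra 0.358 to 0.538 and 0.560 to 1.39, both without overlap, and Col1a2 0 to 2.45 and 0.0768 to 5.83. The part of these markers in the results below was not tested. In bulk RNA, fewer cells of a type and less RNA per cell cannot be told apart. In both groups library 3 lay away from libraries 1 and 2 on the second principal component, which held 25.2% of the variance.

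In the knockout libraries 8 of the 33 tested genes were higher and 3 were lower. The 8 were the ligands Wnt5b and Wnt11, the receptors Fzd2, Fzd4, Fzd6, Ror1 and Ryk, and the transcription factor Tcf7. The 3 were the ligands Wnt4 and Wnt6 and the cytoplasmic gene Dvl3. A call here is an adjusted p below 0.05 from limma over all 11500 genes tested on log2(FPKM + 1), and all differences are knockout minus GFP-Rgnef. Of all tested genes 8.04% were called higher and 5.34% lower, against 24.2% and 9.09% of the tested WNT genes. Of the 8 higher WNT genes, Wnt11 and Fzd4 lie on chromosome 7 and Ryk on chromosome 9. Calls were more frequent there, with 236 of 819 and 234 of 639 tested genes higher. The median difference was 0.04 for the WNT genes and -0.02 for all genes. For each of the 11 the groups did not overlap, which was true of 17 of the 33 in all, where the background is 33.4% of tested genes. The count of higher genes fell to 5 when library 1 or 2 of either group was left out, while Fzd4, Fzd6, Ror1, Ryk, Wnt4 and Wnt6 passed with any 1 library left out.

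**Figure D1:**
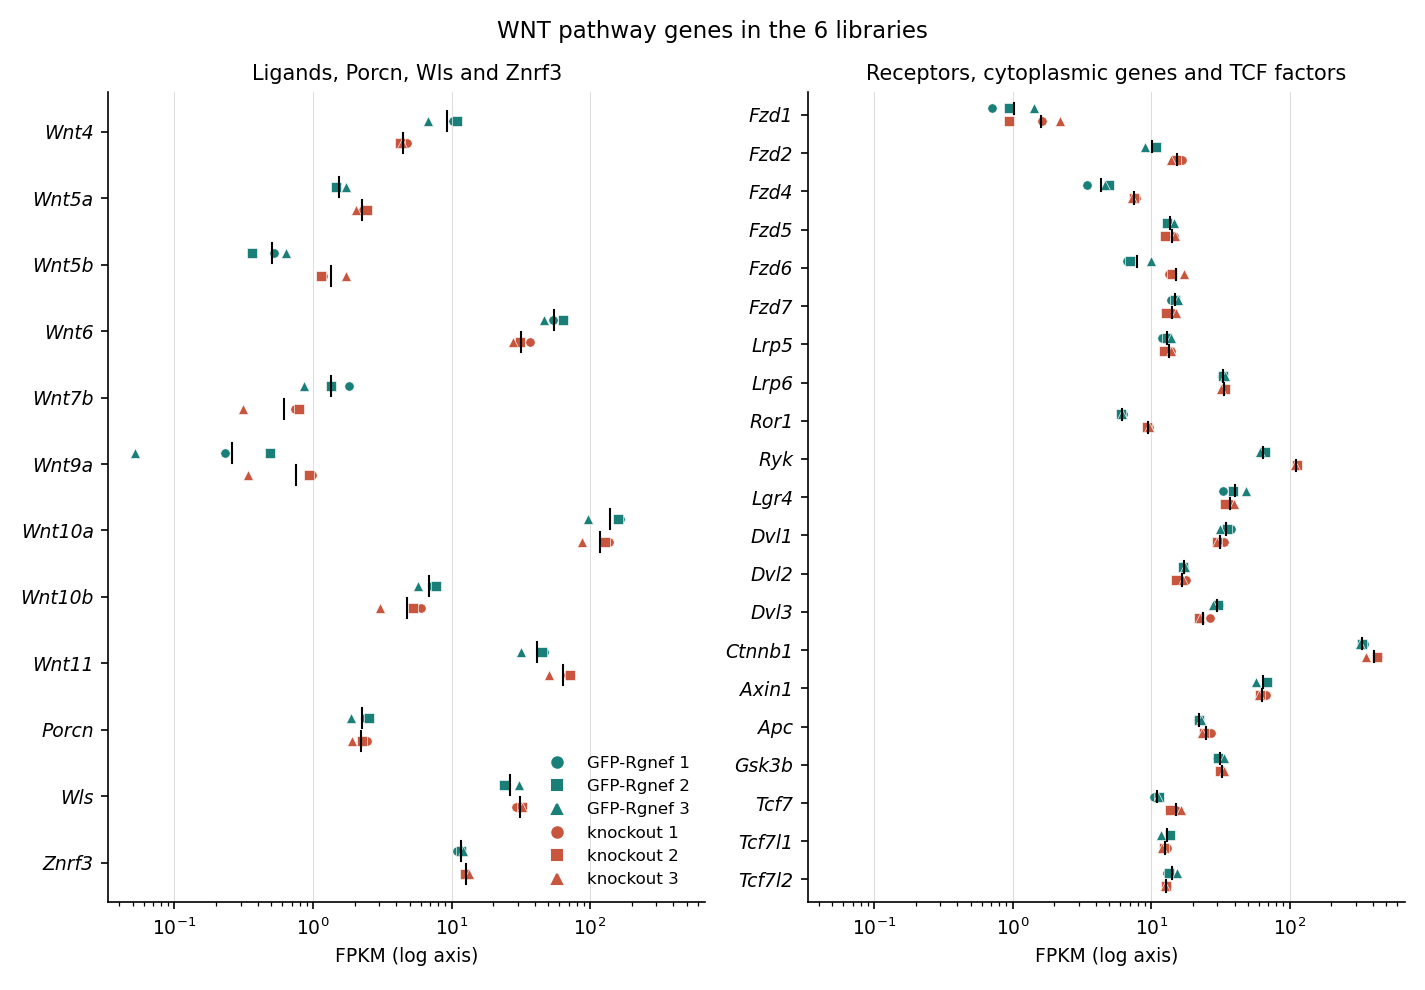
FPKM on a log axis of the 33 WNT genes that passed the filter, 1 point per library, with GFP-Rgnef in green, knockout in red, the marker shape giving the library number and black bars the group means. The knockout points of Ryk (110.1 to 113 FPKM) all lie to the right of the GFP-Rgnef points (60.8 to 66.4), and those of Wnt6 all lie to the left.

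**Figure D2:**
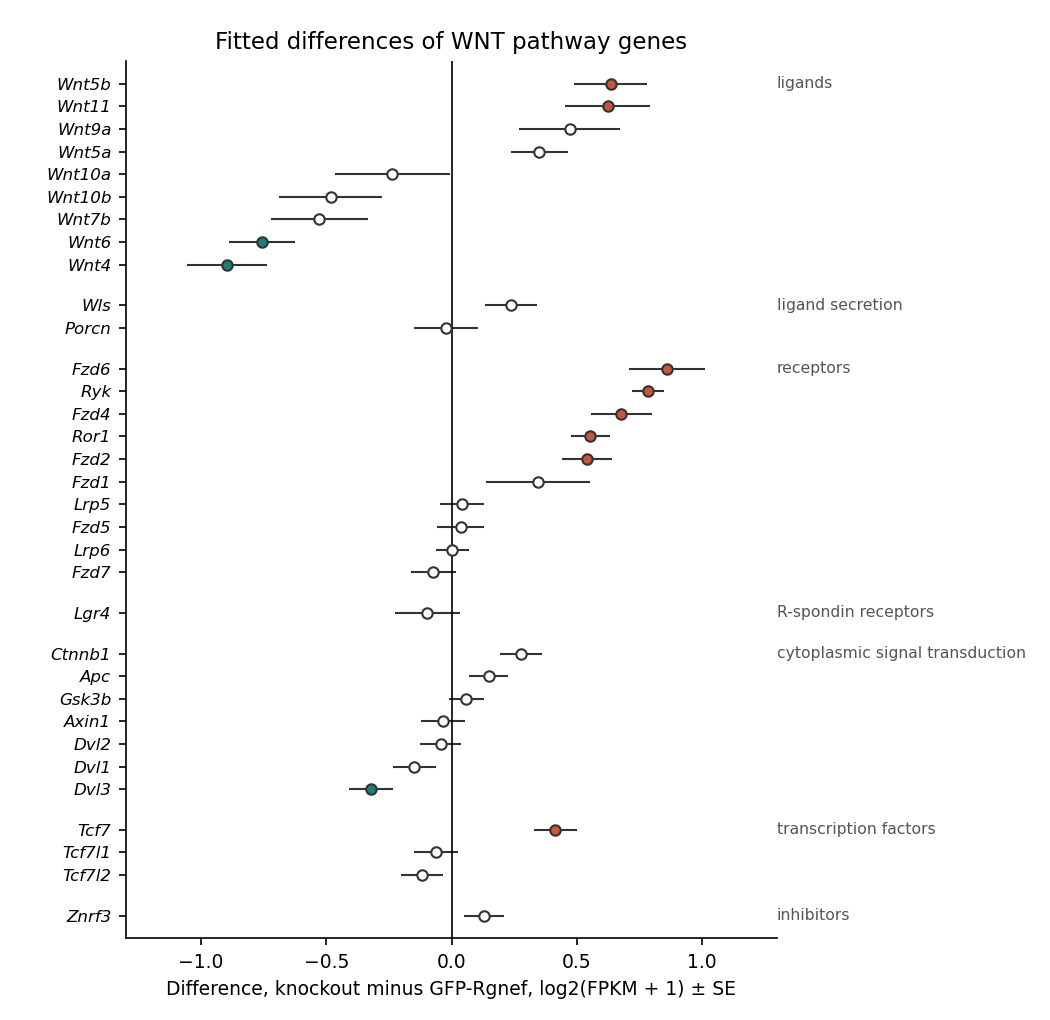
Fitted difference, knockout minus GFP-Rgnef on the log2(FPKM + 1) scale, with its standard error, for the 33 tested genes grouped by role. Filled points passed limma's test, red for the 8 that were higher and green for the 3 that were lower, and open points did not.

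The ligands differed in both directions. Wnt4 had the largest fitted fall, from 10.3, 10.9 and 6.76 FPKM in the GFP-Rgnef libraries to 4.77, 4.22 and 4.37 in knockout (ENSMUSG00000036856, GRCm38 chromosome 4, 137277489 to 137299726, plus strand). Wnt6 had 53.9, 63.9 and 46.6 FPKM with GFP-Rgnef and 36.7, 31.3 and 27.9 in knockout (ENSMUSG00000033227, chromosome 1, 74771892 to 74785322, plus strand). For both genes every knockout library lay below every GFP-Rgnef library. The means were 9.32 ± 2.24 and 4.46 ± 0.287 FPKM for Wnt4 and 54.8 ± 8.72 and 31.95 ± 4.43 for Wnt6 (SD, n = 3). The fitted differences were -0.90 (SE 0.16, limma adjusted p = 0.00982) for Wnt4 and -0.76 (SE 0.133, limma adjusted p = 0.00925) for Wnt6. Both stayed called under all 16 alternatives run. In ratio of means, knockout over GFP-Rgnef, the scarce Wnt7b, which was not called, was lower (0.460) than Wnt4 (0.478).

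Wnt11 and Wnt5b rose. Wnt11, a ligand linked mainly to cell movement, went from 46.7, 44.7 and 32.0 FPKM to 69.5, 71.5 and 50.5 (ENSMUSG00000015957, chromosome 7, 98835112 to 98855195, plus strand). Wnt5b, a relative of Wnt5a, was scarce, at 0.522, 0.363 and 0.643 FPKM with GFP-Rgnef and 1.19, 1.15 and 1.73 in knockout (ENSMUSG00000030170, chromosome 6, 119432531 to 119544347, minus strand). In both cases the lowest knockout library lay above the highest GFP-Rgnef library, for Wnt5b on 13 to 25 reads against 45 to 65. Wnt11 differed by 0.62 (SE 0.171, limma adjusted p = 0.0479) and its mean was 1.55 times that with GFP-Rgnef. Wnt5b differed by 0.64 (SE 0.146, limma adjusted p = 0.0262), a ratio of means of 2.66, since a pseudocount of 1 understates the change of low genes. Wnt11 lost its call without any 1 library except knockout 3 (limma adjusted p from 0.0609 to 0.165) and Wnt5b without any 1 except GFP-Rgnef 3 (0.0553 to 0.0991). Wnt11 lies on chromosome 7, whose 819 tested genes had a median difference of 0.24, and once chromosome medians had been subtracted within libraries its difference was 0.37 (limma adjusted p = 0.223). Nor was Wnt11 called with no filter on low values or with limma without trend (adjusted p = 0.118 and 0.0705).

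The promoters of these 4 ligands are shown because they were the called ligands, a pair that rose and a pair that fell. Each is 250 bases before to 50 after a start site, from RefSeq (GRCm38.p6), written 5′ to 3′ on the gene's strand. Capitals mark a match to the TCF and LEF core letters, CTTTG followed by AA, AT, TA or TT, on either strand, and the windows are chr6:119449337-119449636 (minus strand, an internal start of Wnt5b), chr7:98834862-98835161 (plus, Wnt11), chr4:137277385-137277684 (plus, Wnt4) and chr1:74771642-74771941 (plus, Wnt6).
Wnt5b: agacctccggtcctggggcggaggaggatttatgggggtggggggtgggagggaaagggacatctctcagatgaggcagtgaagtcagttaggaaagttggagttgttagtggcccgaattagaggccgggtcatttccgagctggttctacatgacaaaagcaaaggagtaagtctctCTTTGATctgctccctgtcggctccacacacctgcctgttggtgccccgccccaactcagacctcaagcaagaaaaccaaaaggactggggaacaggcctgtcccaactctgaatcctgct
Wnt11: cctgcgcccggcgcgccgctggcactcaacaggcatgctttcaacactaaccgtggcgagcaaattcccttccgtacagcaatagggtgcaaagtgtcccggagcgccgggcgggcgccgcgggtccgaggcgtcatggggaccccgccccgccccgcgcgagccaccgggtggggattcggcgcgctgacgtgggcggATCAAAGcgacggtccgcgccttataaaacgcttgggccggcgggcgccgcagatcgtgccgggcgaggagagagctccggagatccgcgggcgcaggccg
Wnt4: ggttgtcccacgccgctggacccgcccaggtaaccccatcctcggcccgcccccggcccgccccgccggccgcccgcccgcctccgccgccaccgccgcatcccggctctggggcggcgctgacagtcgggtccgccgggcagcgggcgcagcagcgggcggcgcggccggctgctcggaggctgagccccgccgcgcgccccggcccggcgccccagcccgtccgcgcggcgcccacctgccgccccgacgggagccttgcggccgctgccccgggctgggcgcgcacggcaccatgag
Wnt6: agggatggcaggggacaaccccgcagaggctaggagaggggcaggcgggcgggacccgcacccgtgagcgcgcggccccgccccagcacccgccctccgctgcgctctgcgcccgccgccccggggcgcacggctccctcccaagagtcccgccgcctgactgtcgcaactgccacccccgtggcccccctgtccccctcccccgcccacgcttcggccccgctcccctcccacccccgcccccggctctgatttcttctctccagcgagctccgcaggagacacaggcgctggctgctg
The Wnt5b window held CTTTGAT on the gene's strand beginning 71 bases before the start site, and the Wnt11 window held CTTTGAT on the opposite strand 51 bases before it. The other 2 windows listed for Wnt5b, the other window of Wnt11, and the Wnt4 and Wnt6 windows held no such letters. GC content was 84.3% in the Wnt4 and 76.7% in the Wnt6 window, against 71.3% and 55.0% in the Wnt11 and Wnt5b windows printed. It depended on the window: the Wnt5b windows not printed held 53.0% and, at the annotated gene start, 78.0%. The other Wnt11 window held 59.3%. Among all the WNT genes, RefSeq promoters were at hand for 33 genes with 43 windows, of which 6 (14.0%) held a match, against 16.9% of all 32851 windows and 11.1% of the 11252 windows of tested genes. The others with a match were windows of Dkk1, Fzd7, Lef1 and Tcf7l2. A match describes letters in these windows only.

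The remaining ligands did not pass the test. Wnt10a was the most abundant, at 164, 159 and 96.1 FPKM with GFP-Rgnef and 138, 127 and 87.0 in knockout (limma adjusted p = 0.566). It is the neighbour of Wnt6 on chromosome 1, with 6193 bases between the annotated genes and the same strand. Its library spread was large in both groups, and the groups overlapped through GFP-Rgnef 3, which lay below knockout 1 and 2. With both libraries numbered 3 left out, Wnt10a was lower in knockout by a fitted difference of -0.28 (limma adjusted p = 0.0172). In the same fit the Wnt6 difference was -0.77 (limma adjusted p = 0.00181).

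Wnt5a, the best known ligand of the branch without beta-catenin, had 1.46, 1.45 and 1.74 FPKM with GFP-Rgnef and 2.28, 2.46 and 2.03 in knockout. The groups did not overlap, and the difference of 0.35 (SE 0.113) missed the threshold (limma adjusted p = 0.0799). Wnt7b had 1.82, 1.34 and 0.862 FPKM against 0.747, 0.789 and 0.314, again with no overlap (difference -0.53, SE 0.192, limma adjusted p = 0.113). With both libraries numbered 3 left out, Wnt5a and Wnt7b passed (limma adjusted p = 0.0425 and 0.0433), and with all libraries Wnt5a also passed in limma without trend (adjusted p = 0.041). Wnt10b had 7.20, 7.77 and 5.76 FPKM against 6.03, 5.29 and 3.03, which overlapped (-0.48, SE 0.205, limma adjusted p = 0.167). Wnt9a stood at 0.230, 0.493 and 0.0523 FPKM against 0.989, 0.935 and 0.342, with overlap (0.47, SE 0.202, limma adjusted p = 0.169), and Wnt7a, below the filter, had 6 reads over the GFP-Rgnef libraries and 0 in knockout.

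Added up, the 10 ligands gave 190.5 to 289.8 FPKM with GFP-Rgnef and 177.1 to 260.2 in knockout, so the totals overlapped. The shares of Wnt11, Wnt6 and Wnt4 did not overlap. Nor did those of Wnt10b, Wnt7b, Wnt5b and Wnt9a, each at most 3.02% of the sum in any library, while those of Wnt10a, Wnt5a and Wnt7a did. Wnt11 was 15.4% to 16.8% of the summed ligand level in the GFP-Rgnef libraries and 26.7% to 29.2% in the knockout libraries. Wnt6 was 18.8% to 24.5% and then 12.8% to 15.7%, and Wnt4 3.55% to 3.76% and then 1.72% to 2.47%. Wnt10a kept the largest share, 50.5% to 57.4% against 49.1% to 53.1%. These shares are descriptions without a test, and they rest on the gene lengths behind the FPKM values.

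**Figure D3:**
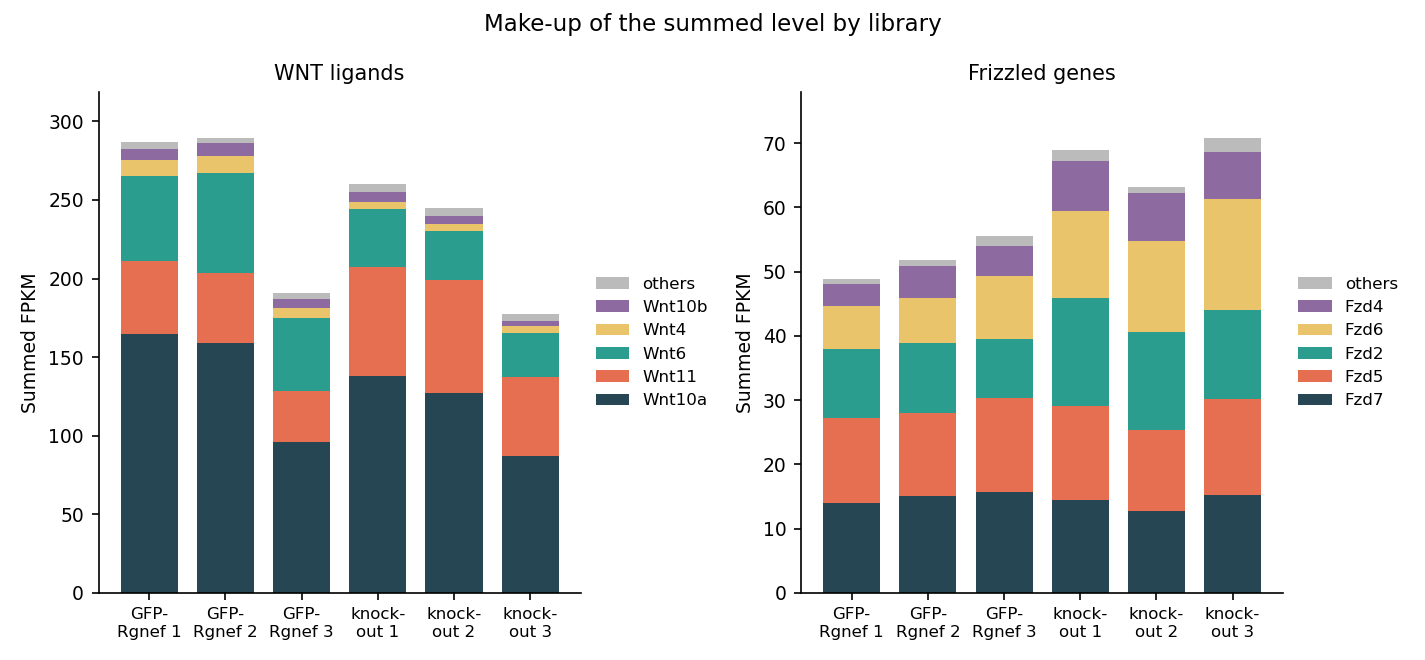
Summed FPKM of the 10 WNT ligands (left) and of the 8 Frizzled genes (right) in each library, stacked by gene with the scarce genes pooled as others. The Wnt11 segment is larger and the Wnt6 segment smaller in the knockout bars, and the Frizzled bars reach 63.2 to 70.9 FPKM in knockout against 48.9 to 55.5 with GFP-Rgnef.

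Ligand levels also varied within each group by library. Of 9 tested ligands 6 were lowest in the library numbered 3 of both groups (Wnt6, Wnt7b, Wnt9a, Wnt10a, Wnt10b and Wnt11), where 22.2% of all tested genes were. Wnt10a in library 3 was 0.595 of the mean of libraries 1 and 2 with GFP-Rgnef and 0.656 in knockout, and Wnt11 was 0.700 and 0.716. Wnt5b went the other way, with library 3 at 1.45 and 1.48 times the mean of the other two. Of 9 tested mesothelial and ovarian surface markers 6 were lowest in library 3 of both groups as well, among them Krt19 (794 and 679 FPKM in the libraries numbered 3, 1268 to 1412 in the others), and the part of this in the ligand levels was not tested.

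**Figure D4:**
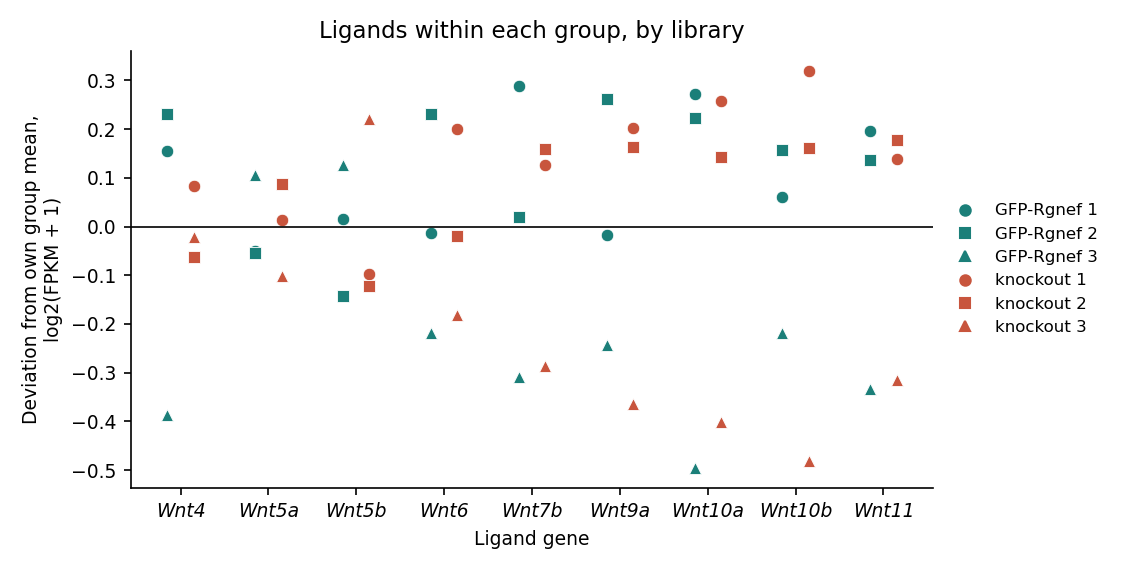
Deviation of each of the 9 tested ligands from the mean of its own group on the log2(FPKM + 1) scale, 1 point per library. The triangles, libraries numbered 3, lie lowest in both groups for 6 ligands and highest in both groups for Wnt5b.

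The genes for ligand secretion gave no call. Porcn, the acyltransferase that attaches the lipid, stood at 1.88 to 2.54 FPKM with GFP-Rgnef and 1.90 to 2.47 in knockout. Wls, the carrier that brings ligands to the surface, had 24.9, 23.8 and 30.6 FPKM with GFP-Rgnef and 29.0, 32.3 and 32.4 in knockout, which overlapped (difference 0.24, SE 0.103, limma adjusted p = 0.177). Without GFP-Rgnef 3 it passed, with a difference of 0.34 (limma adjusted p = 0.037).

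Receptors were the group with the most calls: 5 of 10 tested were higher, 0 were lower, and 9 of the 10 differences were positive. In all tested genes 8.04% were called higher and 46.8% of differences were positive. On chromosome 7, which holds Fzd4, 236 of 819 tested genes were called higher, and on chromosome 9, which holds Ryk, 234 of 639. The median receptor difference was 0.44. At an unadjusted p below 0.05 no receptor was lower either, and voom in limma on recovered reads called the same 8 WNT genes higher, these 5 receptors among them.

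Fzd6 had the largest difference of the 33 genes that was positive. This Frizzled, known for planar cell polarity, went from 6.69, 7.06 and 9.95 FPKM to 13.6, 14.2 and 17.3 (ENSMUSG00000022297, chromosome 15, 39006034 to 39038188, plus strand). Its groups did not overlap although the libraries numbered 3 were the highest of each, and the difference was 0.86 (SE 0.15, limma adjusted p = 0.00916), a ratio of means of 1.90.

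Fzd4, which also binds the non-WNT ligand norrin, had 3.46, 5.001 and 4.65 FPKM with GFP-Rgnef and 7.83, 7.48 and 7.28 in knockout (ENSMUSG00000049791, chromosome 7, 89404355 to 89413134, plus strand). The 3 knockout values lay close together and above all others, for a difference of 0.68 (SE 0.123, limma adjusted p = 0.0107). With the chromosome medians removed Fzd4 differed by 0.43 and was not called (limma adjusted p = 0.0714). Fzd2 had 10.7, 10.8 and 9.04 FPKM against 16.7, 15.2 and 13.9 (ENSMUSG00000050288, chromosome 11, 102604396 to 102608058, plus strand). It was higher in all knockout libraries, by 0.54 (SE 0.101, limma adjusted p = 0.0118), and lost its call without knockout 2 (limma adjusted p = 0.0514).

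The other Frizzled genes did not pass. Fzd5 had 13.1 to 14.7 FPKM with GFP-Rgnef and 12.6 to 14.99 in knockout, and Fzd7 had 14.0 to 15.7 and 12.8 to 15.2, with overlap in both. Fzd1 was scarce (0.706 to 1.42 and 0.938 to 2.19 FPKM), and Fzd3 and Fzd8 had at most 2 reads in any library. The order of levels thus changed from Fzd7 (14.9 ± 0.831 FPKM), Fzd5, Fzd2, Fzd6 and Fzd4 with GFP-Rgnef to Fzd2 (15.3 ± 1.41), Fzd6 (15.04 ± 2.01), Fzd7 (14.1 ± 1.22) and Fzd5 (14.1 ± 1.31) in knockout (SD, n = 3), where the top 4 did not differ beyond their spread. The summed Frizzled level did not overlap between the groups, and Fzd7 made up 28.2% to 28.9% of it with GFP-Rgnef and 20.2% to 21.4% in knockout. Order and shares rest on the gene lengths behind the FPKM values. The length that gave whole reads was the annotated 3663 bases for Fzd2. For Fzd5 the smallest such length was 4905 bases, where the annotated exons hold 6915.

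Ryk and Ror1 are single-pass receptors that bind WNT5-type ligands. Ryk, at 66.2, 66.4 and 60.8 FPKM with GFP-Rgnef, rose to 112.6, 112.6 and 110.1 in knockout (ENSMUSG00000032547, chromosome 9, 102834917 to 102908305, plus strand). It had the smallest p of the 33 genes, at 64.5 ± 3.16 against 111.8 ± 1.46 FPKM (SD, n = 3), with a difference of 0.79 (SE 0.0623, limma adjusted p = 0.000341). Chromosome 9, where it lies, had a median difference of 0.28 over 639 tested genes, and with chromosome medians removed Ryk differed by 0.49 and was still called. Ror1, a receptor kinase relative better known from development and leukaemia, had 6.29, 6.06 and 6.15 FPKM against 9.67, 9.28 and 9.62 (ENSMUSG00000035305, chromosome 4, 100095791 to 100444765, plus strand). Its groups were far apart for their spread, the difference was 0.55 (SE 0.0782, limma adjusted p = 0.00446), and it stayed called under all 16 alternatives. Ror2, its close relative, was at 0 in every library.

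The co-receptors of the canonical branch did not pass the test. Lrp6 stood at 33.2 ± 0.865 FPKM with GFP-Rgnef and 33.3 ± 1.25 in knockout, and Lrp5 at 13.0 ± 0.907 and 13.4 ± 0.871 (SD, n = 3), with overlap in both. Lgr4, an R-spondin receptor that keeps Frizzled at the surface, had 33.1 to 48.1 and 34.0 to 39.6 FPKM, and Lgr5 had 22 reads over the GFP-Rgnef libraries, 17 of them in GFP-Rgnef 2, and 9 in knockout.

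Among the cytoplasmic genes 1 of 7 tested was called (14.3%), close to the 13.4% of all tested genes called in either direction. Dvl3, 1 of 3 Dishevelled adaptors that relay the signal from Frizzled, went from 30.9, 30.4 and 28.0 FPKM to 26.4, 22.0 and 22.7 (ENSMUSG00000003233, chromosome 16, 20516982 to 20534010, plus strand). The groups did not overlap, but the fall was small, at -0.32 (SE 0.0883, limma adjusted p = 0.0486). The call was lost without library 2 of either group, GFP-Rgnef 1 or knockout 3 (limma adjusted p from 0.1 to 0.164), and also with no filter, TPM scaling, quantile normalization, no trend or chromosome medians removed (0.0511 to 0.132). Dvl1 had 31.5 to 37.6 and 29.9 to 33.7 FPKM (difference -0.15, SE 0.0872, limma adjusted p = 0.315). Dvl2 had 16.9 to 17.6 and 15.1 to 17.9 FPKM, and 18.3% of its exon bases overlap the more abundant Acadvl on the opposite strand, so with the handling of strand unknown its reads are uncertain.

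Ctnnb1, which encodes beta-catenin, was the most abundant of the 33 genes. It had 342, 335 and 321 FPKM with GFP-Rgnef and 431, 427 and 356 in knockout, where knockout 3 was nearest the GFP-Rgnef values but the groups did not overlap. The difference of 0.28 (SE 0.0832) missed the threshold (limma adjusted p = 0.064). Without knockout 3 it was 0.37 and passed (limma adjusted p = 0.0124), and with both libraries numbered 3 left out it was 0.34 (limma adjusted p = 0.00396). Ctnnb1 also lies on chromosome 9, and with chromosome medians removed its difference was -0.01 (limma adjusted p = 0.945).

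The 3 genes of the destruction complex among the 49 that passed the filter gave no call. Apc had 21.8, 22.3 and 22.7 FPKM with GFP-Rgnef and 27.2, 24.0 and 23.3 in knockout, without overlap and without a call (difference 0.15, SE 0.0792, limma adjusted p = 0.266). Axin1 stood at 64.7 ± 6.62 and 62.96 ± 3.59 FPKM and the kinase gene Gsk3b at 31.2 ± 1.84 and 32.6 ± 1.05 (SD, n = 3), with overlap in both. 

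Of the TCF and LEF factors Tcf7 rose. Tcf7, which encodes TCF1 and is itself a target of the pathway in several tissues, had 10.5, 11.4 and 11.1 FPKM with GFP-Rgnef and 15.05, 13.7 and 16.3 in knockout (ENSMUSG00000000782, chromosome 11, 52252371 to 52283014, minus strand). The knockout libraries were all higher, by 0.41 (SE 0.0867, limma adjusted p = 0.0185). Its call was lost without GFP-Rgnef 1, GFP-Rgnef 2 or knockout 1 (limma adjusted p = 0.0732, 0.060 and 0.0565). Tcf7l1, mostly a repressor, had 11.8 to 13.8 and 11.99 to 13.1 FPKM. Tcf7l2 had 13.1 to 15.4 FPKM with GFP-Rgnef and 12.6 to 13.0 in knockout, without overlap or a call (difference -0.12, limma adjusted p = 0.419).

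Lef1, the fourth factor, was below the filter. It had 0, 0.0413 and 0 FPKM with GFP-Rgnef, which is 2 reads in all, and 0.238, 0.321 and 0.432 FPKM in knockout, which is 13, 17 and 22 reads. Every knockout library had more reads than all GFP-Rgnef libraries together. The ratio of summed reads, corrected for depth, was 25.0 with an exact 95% interval of 6.59 to 212.2, which covers counting error only. With no filter on low values limma gave it a difference of 0.39 and an adjusted p of 0.0192.

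The inhibitors were low. Znrf3, a ubiquitin ligase that removes Frizzled and LRP6 from the surface, was the 1 of 10 that passed the filter, with 10.9, 11.8 and 12.2 FPKM against 12.5, 12.5 and 13.4 (difference 0.13, SE 0.08, limma adjusted p = 0.332). The groups did not overlap and the gap was small. Its relative Rnf43 was above 0 only in GFP-Rgnef 3, at 0.103 FPKM. The LRP blocker gene Dkk1, the ligand-binding Wif1 and the Dishevelled partner Nkd2 were listed at 0 throughout, Nkd1 had at most 1 read and Sfrp1 at most 3 per library.

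Dkk2 and Sfrp2 had reads mainly in the libraries numbered 3. Dkk2, on chromosome 3 at 860935 bases from Lef1, had 0, 0 and 1 reads with GFP-Rgnef and 5, 1 and 16 in knockout. Sfrp2, a secreted decoy, had 1, 0 and 10 reads against 1, 0 and 21, so its 2 high libraries were those numbered 3. Of the stromal list Col1a1, Col1a2, Pdgfra, Pdgfrb and Acta2 were also highest in library 3 of both groups. Col1a2 had 0, 0 and 2.45 FPKM against 0.173, 0.0768 and 5.83. The other genes of that list, Dcn and Thy1, were lowest in library 3 of both groups. The part of these markers in the Dkk2 and Sfrp2 values was not tested. Dkk3 had 0 to 2 reads against 1 to 4. Neither Dkk2 nor Sfrp2 was called without the filter (limma adjusted p = 0.376 and 0.839).

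Genes that canonical signalling commonly induces as feedback were Axin2, Lef1, Tcf7, Rnf43, Znrf3, Lgr5, Nkd1 and Dkk1. Of these 8 only Tcf7 and Znrf3 passed the filter, and 1 was called higher, where 8.04% of all tested genes were. Axin2, the most widely used readout of the pathway, had 1, 7 and 6 reads with GFP-Rgnef and 2, 1 and 1 in knockout (0.0346 to 0.259 and 0.0338 to 0.0654 FPKM), which overlapped and was not called without the filter (limma adjusted p = 0.324). Its ratio of summed reads was 0.275, with an exact 95% interval of 0.0659 to 0.876 for counting error only. Lef1 and Axin2 thus had opposite signs at very low levels.

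Other genes of the pathway were read from a list of 100 symbols, of which 99 were in the table and 62 were tested. Of these 6 were higher and 2 were lower, 9.68% and 3.23% against the background of 8.04% and 5.34%, with a median difference of 0.01. The 4 R-spondin genes, whose products act through LGR receptors, and the ligands Wnt3, Wnt3a and Wnt16 were below the filter. Of these Rspo3 had 0, 0.0263 and 0.242 FPKM with GFP-Rgnef and 0.906, 0.528 and 0.524 in knockout, without overlap and without a test. The R-spondin receptor gene Lgr6, also below the filter and not tested, went the other way without overlap. It had 0.233, 0.383 and 0.423 FPKM with GFP-Rgnef and 0.0508, 0.0525 and 0.127 in knockout. Among the ligands, Wnt2 rose from 0.265, 0.409 and 0.608 FPKM to 1.53, 1.32 and 1.79 (difference 0.84, SE 0.142, limma adjusted p = 0.00822), with no overlap, and stayed called under all 15 alternatives that tested it.

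Among regulators outside the cell, Sfrp4, a secreted decoy of the same family as Sfrp2, rose from 20.5, 20.8 and 13.9 FPKM to 30.6, 34.4 and 23.9 (limma adjusted p = 0.0415). The heparan sulfatase gene Sulf2 rose from 74.6, 76.8 and 63.5 to 105, 99.1 and 92.3 FPKM (limma adjusted p = 0.0131). Both had their lowest value in library 3 of each group and did not overlap between groups. Sfrp4 lost its call without any 1 library except knockout 3 (limma adjusted p up to 0.147) and with no filter, no trend or chromosome medians removed, and Sulf2 without knockout 2 (limma adjusted p = 0.0578).

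Inside the cell, Aes, a short Groucho-type partner of TCF factors, fell from 378, 417 and 385 FPKM to 298, 264 and 296 (difference -0.46, SE 0.0717, limma adjusted p = 0.00601) and stayed called under all 16 alternatives. Dixdc1, a DIX domain partner of Dishevelled on chromosome 9, rose from 0.808, 1.27 and 1.89 to 2.75, 3.68 and 4.59 FPKM (limma adjusted p = 0.0157). Lmbr1l, a membrane protein gene described as a negative regulator of the pathway in lymphocytes, fell from 21.7 ± 1.44 to 15.5 ± 2.56 FPKM (SD, n = 3; limma adjusted p = 0.0314). The kinase gene Gsk3a, on chromosome 7, rose from 31.4 ± 2.02 to 39.6 ± 2.34 FPKM and the corepressor gene Ctbp2 on the same chromosome from 42.0 ± 1.67 to 52.5 ± 2.24 (SD, n = 3; limma adjusted p = 0.0301 and 0.0197). With chromosome medians removed Gsk3a and Ctbp2 differed by 0.07 and 0.06, and Dixdc1 by 0.72, and none of the 3 was called. Gsk3a lost its call without any 1 library. Ctbp2 lost it without library 1 or 2 of either group, Lmbr1l without library 2 of either group, GFP-Rgnef 1 or knockout 3, and Dixdc1 without GFP-Rgnef 2 or knockout 2 (limma adjusted p up to 0.119 for these). With no filter on low values Lmbr1l and Dixdc1 were not called either.

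Reported target genes outside the 49 were listed with 54 symbols, of which 51 were in the table and 29 were tested. Here 4 were higher and 2 lower, 13.8% and 6.9% against 8.04% and 5.34% of all tested genes, with a median difference of 0.08. Ccn4, also known as Wisp1 for its induction by WNT1, rose from 82.3, 77.1 and 71.3 FPKM to 132.8, 140.3 and 120.3 (difference 0.76, SE 0.0817, limma adjusted p = 0.00157). Met, a receptor tyrosine kinase that binds HGF, rose from 50.7 to 52.5 FPKM with GFP-Rgnef to 76.1 to 79.6 in knockout (0.57, SE 0.059, limma adjusted p = 0.00131). The vasoconstrictor gene Edn1 rose from 7.17, 6.92 and 3.61 to 19.9, 21.5 and 12.8 FPKM (1.48, SE 0.253, limma adjusted p = 0.00853). For these 3 the groups did not overlap and the calls held under all 16 alternatives.

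Bmp4, a secreted TGF-beta superfamily ligand, rose from 59.6 ± 2.42 to 73.1 ± 2.53 FPKM, while Ccn1 (Cyr61) fell from 24.3 ± 1.51 to 17.5 ± 1.59 and Vegfa from 30.3 ± 7.37 to 20.1 ± 1.38 (SD, n = 3; limma adjusted p = 0.0223, 0.0144 and 0.0473). Bmp4 lost its call without GFP-Rgnef 2, knockout 1 or knockout 2, Ccn1 without GFP-Rgnef 1 or knockout 2, and Vegfa without GFP-Rgnef 2 or any 1 knockout library (limma adjusted p up to 0.155). With no filter, TPM scaling, no trend or chromosome medians removed Vegfa was not called either. Ccn1, Vegfa and Met are also read out by other pathways. The much used targets Sp5, Notum, Ascl2 and Cdx1 were below the filter, and Ccnd1, Myc and Sox9 were tested and not called (limma adjusted p = 0.0695, 0.070 and 0.0748).

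**Figure D5:**
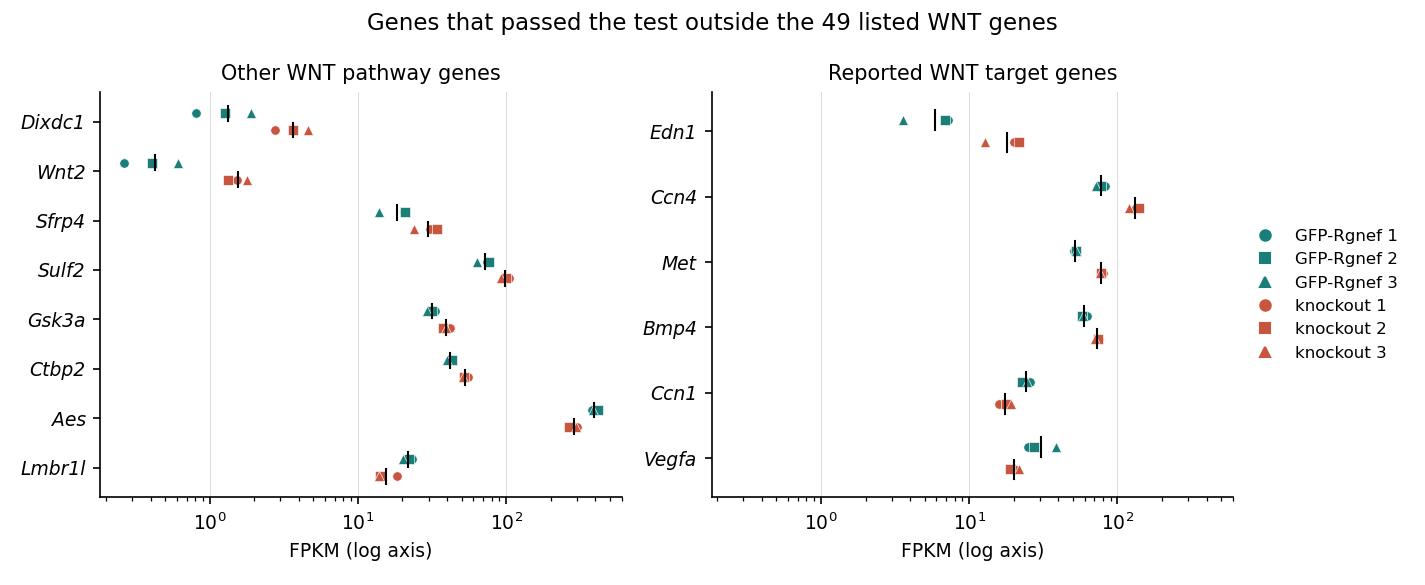
FPKM on a log axis of the genes outside the 49 that passed limma's test, 1 point per library and black bars for group means: 8 other pathway genes (left) and 6 reported target genes (right), ordered by fitted difference. Edn1 and Wnt2 are the genes whose knockout points lie farthest to the right of their GFP-Rgnef points in ratio, while Aes, Lmbr1l, Ccn1 and Vegfa lie to the left.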

How the data were processed

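Per the labels, RNA of 6 samples was enriched with poly-T beads and made into NEBNext Ultra libraries. FPKM values for 35275 Ensembl genes were deposited by the authors in 1 table. The submitters' processing notes name CASAVA 1.8, TopHat2 2.0.9, DESeq2 and build mm10; counter, annotation and strand: not given in the sources used here. Gene names and positions were taken from GENCODE (mouse, release M 21, GRCm38), where 34490 genes matched. A gene length that made all its values whole reads within 0.02 was found for 99.99% of genes above 0, the annotated exon length for 4228 genes and otherwise the smallest such length for 15426. Read numbers are therefore the smallest that fit, and they summed to 99.8% to 99.9% of the implied depths.

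The test was limma 3.58.1 with trend (R 4.3.3) for log2(FPKM + 1) of 11500 genes, with Benjamini-Hochberg adjustment over all of them. It was run on simulated counts with the same spread setting for every gene and no library or chromosome effects. That run cannot give the error rate in these libraries. Alternatives were the pseudocount (0.1), no filter or a mean of at least 5 FPKM, TPM scaling, quantile normalization, no trend, a replicate block, each library left out, both libraries numbered 3 left out, chromosome centring, and voom on recovered reads. The 49 genes and all lists were chosen with earlier results of these data known. Named were all 49, with full statistics for called members and the 8 not called with the smallest p, Arhgef28, and up to 8 called genes of each further list with the smallest p. In the lists, 4 symbols were older or newer names of genes counted once. Other genes named with values were chosen after the values were seen. Summaries used pandas 2.3.3 and numpy 2.4.6 in Python 3.11.15, and plots matplotlib 3.10.9.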

Additional observations from a re-analysis of the deposited data

How the results depend on the processing

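The results were recomputed under 16 alternatives, and Ryk, Ror1, Fzd6, Wnt6 and Wnt4 kept direction and call under all of them. With each library left out in turn, the WNT genes gave 5 to 8 higher and 2 to 3 lower, all genes 455 to 850 higher and 198 to 578 lower, the other pathway genes 1 to 6 higher and 1 to 2 lower, the target genes 3 to 5 higher and 0 to 4 lower, and the feedback targets 0 to 1 higher. Without both libraries numbered 3, 5 WNT genes were lower in place of 3, all genes gave 1048 lower in place of 614, other pathway genes 10 higher in place of 6, and target genes 6 lower in place of 2. Chromosome centring gave 494 genes higher and 388 lower in all. It gave 6 WNT genes higher, without Fzd4 and Wnt11, and 2 lower, without Dvl3. It also gave 2 other pathway genes higher and 1 target gene lower, and turned Ctnnb1 to -0.0147. With no filter on low values 394 genes were lower in all, 1 target gene was lower and 2 feedback targets were higher, the second being Lef1; TPM scaling also gave 1 target gene lower. With the replicate number as a replicate block 6 WNT genes were lower (Wnt7b, Wnt10a and Wnt10b joining) and 9 higher (Ctnnb1 joining), all genes gave 1517 higher and 1253 lower, other pathway genes 4 lower, and target genes 9 higher and 6 lower. Over 11500 genes, the deviations from group means of same-numbered libraries correlated at 0.321, -0.02 and 0.552, and not every library correlated best with its own number, so the numbers were not taken to pair the libraries. The cause of these changes under the alternatives was not tested. Depth limits the genes below the filter, and 3 libraries a group limit all calls. The WNT genes below the filter rest on at most 22 reads in a library. Among the other pathway genes below it, Rspo3 had up to 39 reads in a knockout library.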
